A study of Mus musculus with 11 samples.

Results

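The genes described are 37 genes of sterol and fatty acid metabolism, chosen by symbol from a table of 37991 listed genes and followed in 11 RNA sequencing libraries. They fall into 15 enzymes of sterol synthesis, 5 genes grouped as SREBP control, 10 genes of fatty acid synthesis and 7 genes of the liver X receptor (LXR) and sterol efflux group. The control genes are Srebf1 and Srebf2, which encode the SREBP transcription factors, with Scap, Insig1 and Stard4. Each of the 37 symbols matched 1 row, and all 37 were among the 13342 genes that passed a filter of at least 1 CPM in at least 2 libraries. CPM, the unit the authors deposited, is the number of a gene's reads in every 1000000 reads of its library.

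The cells were neural stem cells from the frontal cortex of C57BL/6J mouse embryos at embryonic day 14.5, with no genetic change named in the labels. They were expanded in NeuroCult proliferation medium on coated flasks and collected at day 0 (the NSC group, 3 libraries), or washed and kept for 4 days in 1 of 3 media, each with GlutaMAX-1. The Astrocyte medium was DMEM containing fetal bovine serum and N-2 supplement at 1% each (3 libraries), the Neuron medium was Neurobasal with 2% B-27 supplement (3 libraries), and the Oligodendrocyte medium was that same Neurobasal mixture plus 30 ng/mL of the thyroid hormone T3 (2 libraries). The group names stand for the medium a culture received, and no culture was kept in proliferation medium to day 4, so that the change of medium and the time in culture cannot be told apart. The series calls the replicates biological without saying which embryos or cultures each came from, and p-values measure only the spread between these libraries.

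Cholesterol is built from acetyl-CoA through mevalonate, isoprenoid units, squalene and lanosterol, and most of these enzymes are targets of the transcription factor SREBP2. SCAP carries the SREBP precursors out of the endoplasmic reticulum when sterols are low, and INSIG proteins hold them back when sterols are high. SREBP1 is best known for fatty acid synthesis, and the LXR receptors, which bind oxysterols, raise genes that export cholesterol to apolipoprotein E particles. In the brain cholesterol is made locally, astrocytes are a main source of apolipoprotein E, and oligodendrocytes use much sterol and fatty acid for myelin.

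Promoter sequence is shown as a description. Most of the sterol enzymes were lower at day 4, while genes of the other roles moved in different directions. A link between promoter sequence and these changes was not tested. The reference table used here (RefSeq, build GRCm38.p6) held promoters for 28 of the 37 members, and the 250 bases before each start were searched on both strands. Fdps, Fdft1, Sqle, Stard4, Scd1, Scd2, Fads1, Abcg1 and Lpl had no entry. The capitals in the sequences mark the CCAAT box that binds NF-Y, a partner of the SREBPs (CCAAT, or ATTGG on the opposite strand) and, in the Abca1 window, the E-box (CACGTG). The windows shown are those of some named sterol enzymes, of Srebf2, and of 3 genes of other roles, each with 1 listed promoter. Each window was chosen to hold a match, so the windows are examples and do not stand for all members. Acat2, Mvk and Ebp also had 1 listed promoter and are not shown, and Acat2 had no match. Other matches, such as CCAAT boxes at -20 in Nsdhl and -165 in Hsd17b7, lie outside the windows.
Idi1: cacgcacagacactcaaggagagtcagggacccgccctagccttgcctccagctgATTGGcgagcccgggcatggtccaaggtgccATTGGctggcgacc
Lss: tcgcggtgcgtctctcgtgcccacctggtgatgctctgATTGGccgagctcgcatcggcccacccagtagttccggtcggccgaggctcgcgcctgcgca
Hsd17b7: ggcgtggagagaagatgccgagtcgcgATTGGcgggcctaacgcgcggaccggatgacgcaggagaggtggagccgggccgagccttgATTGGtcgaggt
Nsdhl: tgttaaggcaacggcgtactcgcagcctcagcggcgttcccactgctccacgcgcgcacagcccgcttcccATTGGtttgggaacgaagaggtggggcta
Srebf2: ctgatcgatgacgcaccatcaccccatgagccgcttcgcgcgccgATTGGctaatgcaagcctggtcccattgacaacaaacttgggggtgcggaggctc
Fasn: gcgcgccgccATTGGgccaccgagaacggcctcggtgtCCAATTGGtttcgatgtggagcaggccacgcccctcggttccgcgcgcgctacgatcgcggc
Thrsp: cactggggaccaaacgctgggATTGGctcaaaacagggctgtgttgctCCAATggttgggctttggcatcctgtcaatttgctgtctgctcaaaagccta
Abca1: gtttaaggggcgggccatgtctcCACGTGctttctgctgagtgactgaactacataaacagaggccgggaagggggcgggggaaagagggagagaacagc

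These 8 windows are written 5′ to 3′ on the gene's strand. In build GRCm38.p6 they are chr13:8885506-8885605, plus strand (Idi1), chr10:76531505-76531604, plus strand (Lss), chr1:169969206-169969305, minus strand (Hsd17b7) and chrX:72918341-72918440, plus strand (Nsdhl). The others are chr15:82147089-82147188, plus strand (Srebf2), chr11:120824548-120824647, minus strand (Fasn), chr7:97417551-97417650, minus strand (Thrsp) and chr4:53159966-53160065, minus strand (Abca1). They cover bases -180 to -81 before the start for Nsdhl and Srebf2, -170 to -71 for Abca1 and -100 to -1 for the rest. The 2 CCAAT matches at the centre of the Fasn window share bases. A CCAAT box was found for 18 of the 28 members with a promoter (64.3%), against 37.5% of 27025 gene symbols with a promoter in the table. A gene counted, here and for the E-box, if any of its listed promoters held a match. Pmvk, Scap and Nr1h3 had 2 listed promoters and Dhcr7, Srebf1 and Apoe had 3, which gave them more chances of a match. Among the sterol enzymes 11 of 12 held it (Acat2 did not), as did 3 of 4 control genes, 3 of 7 fatty acid genes and 1 of 5 LXR and efflux genes. The E-box occurred in Hsd17b7, Dhcr7, Scap, Insig1, Elovl5 and Abca1, which is 6 of 28 members (21.4%) against 6.86% of all symbols. Sterol regulatory elements and LXR repeats were not searched here. These are matches of letters in 1 short window and no binding was measured.

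The libraries held an estimated 49300000 to 66200000 reads. The mitochondrial genome's genes took 6.01% to 6.22% of the listed CPM in NSC and 7.64% to 11.4% in the day 4 libraries. Neuron replicate 2 stood apart: its correlation with the other Neuron libraries across the tested genes was 0.9902 and 0.9928, against 0.9982 between those, and its mitochondrial share was the highest. Results that turn on it are given without it. The summed level of 5 cell cycle genes was 2177 to 2280 CPM in NSC and 36.02 to 89.52 CPM at day 4. Mature neuron markers were low in the Neuron libraries (Syt1 at 8.0 to 12.78, Snap25 at 2.57 to 3.78 and Rbfox3 at 1.65 to 2.8 CPM), and the astrocyte marker Gfap was at 2449 to 2828 CPM there. Of the other neuron markers listed, Dcx was at 105.84 to 177.06 CPM in Neuron and 1.33 to 2.02 CPM in NSC. Tubb3 was at 24.88 to 30.5 CPM in Neuron and 3.51 to 4.48 CPM in NSC. Both were above NSC in Astrocyte and Oligodendrocyte too. Means of Syt1, Rbfox3 and Dcx were highest in Neuron, and those of Tubb3 and Snap25 in Oligodendrocyte. Mature oligodendrocyte markers summed to 2505 to 2680 CPM in Neuron and 2406 to 2755 CPM in Oligodendrocyte, with Mog at 0.37 to 0.76 CPM in Neuron. Adipocyte markers summed to at most 0.48 CPM in any library.

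Differences are given as log2 fold changes, the difference of mean log2(CPM + 1), which understates the change of low genes. A gene was called, and is described as higher or lower, at an adjusted p under 0.05 (limma, Benjamini-Hochberg adjustment over all 13342 genes). Calls were common. In Astrocyte vs NSC 35 of the 37 members were called, 13 higher and 22 lower, where 83.6% of all genes were called (48.0% higher, 35.6% lower). In Neuron vs NSC 34 were called, 10 higher and 24 lower, against 83.1% of all genes (43.5% higher, 39.6% lower). In Oligodendrocyte vs NSC 36 were called, 14 higher and 22 lower, against 80.2% of all genes (48.1% higher, 32.2% lower). A change of at least 2-fold was called for 21, 23 and 18 members in these comparisons, against 33.7%, 31.8% and 32.0% of all genes. The 3 comparisons share the NSC libraries. Across all 3 media 20 members were lower than in NSC, 9 were higher, and 8 differed in direction or call. The share of all genes that went the same way in all 3 media was not computed. These counts are therefore not read as particular to the members. The 20 were 14 sterol enzymes, Insig1, Stard4, Acly, Acaca, Fasn and Elovl6, and the 9 were Srebf1, Scd2, Fads1, Fads2, Nr1h2, Nr1h3, Abca1, Abcg1 and Apoe.

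**Figure D1:**
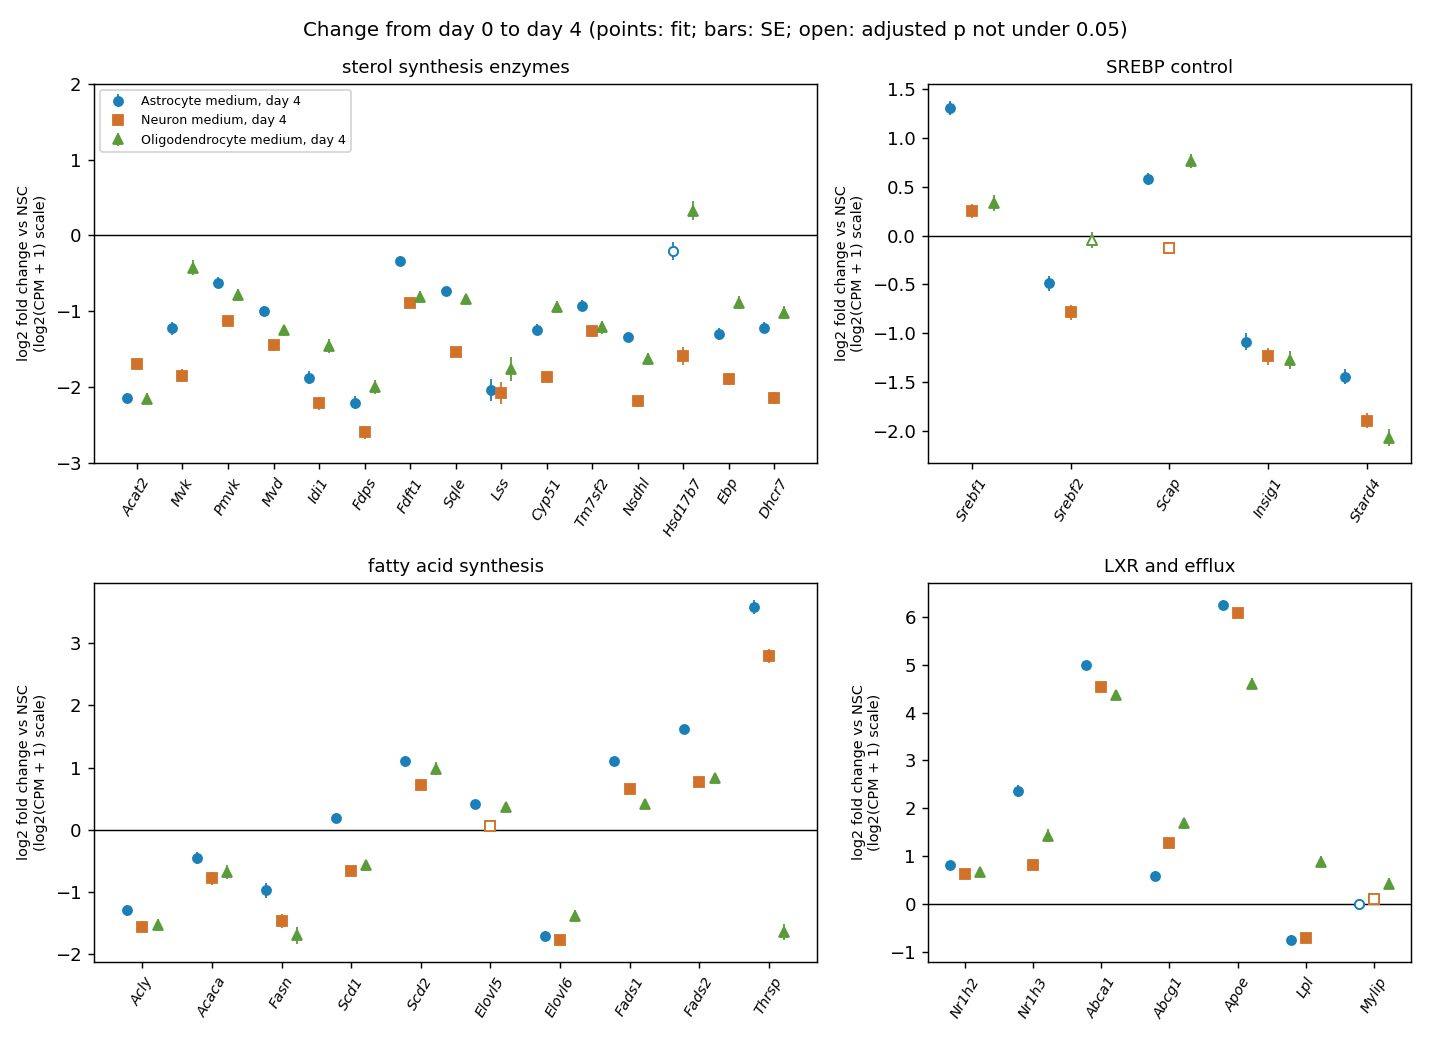
Log2 fold change of each of the 37 members in the 3 day 4 cultures against NSC, on the log2(CPM + 1) scale, in 4 panels by role with separate vertical scales; symbols are the fitted differences, bars the SE, and open symbols differences that were not called. Of the sterol enzymes all but Hsd17b7 lie below 0 in all 3 media, while Abca1 and Apoe lie above 4.

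The sterol synthesis enzymes were lower at day 4 than at day 0. Their summed level was 2239, 2246 and 2353 CPM in the NSC libraries, 1015, 938 and 972 CPM in Astrocyte, 685, 611 and 676 CPM in Neuron and 969.8 and 1076 CPM in Oligodendrocyte. Every day 4 library was below every NSC library, and the Neuron libraries were below all others. Of the 15 enzymes 14 were lower in Astrocyte, 15 in Neuron and 14 in Oligodendrocyte. Falls of at least 2-fold were called for 9, 14 and 8 of them, where 12.3%, 13.8% and 10.7% of all genes fell that far. Their median log2 fold change was -1.22 in Astrocyte, -1.85 in Neuron and -1.02 in Oligodendrocyte, beside 0.15, 0.06 and 0.19 for all genes tested. Under median-of-ratios scaling, which brings the all-gene medians to between -0.01 and 0.00, the enzymes' medians were -1.39, -1.92 and -1.23. With the mitochondrial genes left out of the scaling they were -1.24, -1.82 and -1.07, and without Neuron replicate 2 the Neuron median was -1.78. In bulk RNA, fewer cells that express these genes and less RNA per cell cannot be told apart, and the part of the change in cell cycle genes and mitochondrial share in this fall was not tested.

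Acat2 (ENSMUSG00000023832, chr17:13135756-13153613, minus strand; gene positions are in build mm9 unless another build is named) joins acetyl-CoA units at the entry to the pathway. It was at 146, 147 and 162 CPM in NSC, 33.8, 32.0 and 35.2 CPM in Astrocyte, 43.7, 47.3 and 47.9 CPM in Neuron and 33.0 and 33.7 CPM in Oligodendrocyte. All day 4 libraries were below NSC without overlap, and the Neuron libraries were the highest of day 4. It was the 1 enzyme with its lowest mean in Oligodendrocyte, where the log2 fold change against NSC was -2.15 (SE 0.0707, adjusted p = 5.52e-12). Mvk (ENSMUSG00000041939, chr5:114894278-114910600, plus strand), mevalonate kinase, was at 47.0, 44.5 and 49.8 CPM in NSC and at 32.2 and 37.6 CPM in Oligodendrocyte. It was lower in Astrocyte, at 18.1, 19.7 and 21.2 CPM, and lowest in Neuron, at 13.0, 11.2 and 13.0 CPM. No 2 groups overlapped. Its fall against NSC was -1.85 (SE 0.0858, adjusted p = 1.40e-10) in Neuron and -0.43 (SE 0.096, adjusted p = 0.00109) in Oligodendrocyte.

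Idi1 (ENSMUSG00000058258, chr13:8884747-8891697, plus strand) interconverts the C5 isoprenoid units, and Fdps (ENSMUSG00000059743, chr3:88897514-88905881, minus strand) joins them to farnesyl diphosphate. Idi1 was at 81.8, 83.4 and 81.6 CPM in NSC, 24.2, 20.9 and 20.2 CPM in Astrocyte, 17.8, 15.0 and 18.2 CPM in Neuron and 28.3 and 30.4 CPM in Oligodendrocyte. The NSC libraries were far above the rest, and the Neuron libraries lay below both other day 4 groups. Fdps was at 244, 230.4 and 262 CPM in NSC, 53.4, 47.6 and 57.0 CPM in Astrocyte, 41.1, 38.0 and 40.2 CPM in Neuron and 54.7 and 67.1 CPM in Oligodendrocyte, where the Astrocyte and Oligodendrocyte libraries overlapped. It had the largest fall of the enzymes, -2.60 (SE 0.0855, adjusted p = 4.21e-12) in Neuron vs NSC. Lss (ENSMUSG00000033105, chr10:75994333-76019883, plus strand), lanosterol synthase, closes the sterol rings and was at 271, 287 and 279 CPM in NSC. At day 4 it was at 77.3, 66.9 and 59.1 CPM in Astrocyte, 78.4, 48.7 and 73.1 CPM in Neuron and 79.2 and 84.4 CPM in Oligodendrocyte. The low Neuron value was that of replicate 2. Lss was lower in Astrocyte (-2.03), Neuron (-2.08) and Oligodendrocyte (-1.76) and was called in none of the comparisons between day 4 groups. It passed in Oligodendrocyte vs Neuron without Neuron replicate 1 (0.45, adjusted p = 0.0209) and in Oligodendrocyte vs Astrocyte without Neuron replicate 2 (0.28, adjusted p = 0.00914) or with only those 2 groups in the fit (0.28, adjusted p = 0.0329).

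The remaining named enzymes act after lanosterol. Nsdhl (ENSMUSG00000031349, chrX:70163896-70203853, plus strand) removes the C4 methyl groups together with partner enzymes, and it was at 125, 126 and 133 CPM in NSC, 48.4, 48.2 and 53.7 CPM in Astrocyte, 29.3, 24.9 and 27.8 CPM in Neuron and 40.3 and 41.2 CPM in Oligodendrocyte. The 4 groups did not overlap, with Neuron lowest (-2.19 (SE 0.0692, adjusted p = 2.80e-12) against NSC). Ebp (ENSMUSG00000031168, chrX:7762455-7770638, minus strand) moves the double bond of the sterol nucleus and was at 21.6, 20.9 and 20.7 CPM in NSC, 7.92, 7.39 and 8.71 CPM in Astrocyte, 4.59, 5.16 and 5.11 CPM in Neuron and 10.3 and 11.6 CPM in Oligodendrocyte. Its groups did not overlap either and ran in the order NSC, Oligodendrocyte, Astrocyte, Neuron. Dhcr7 (ENSMUSG00000058454, chr7:151009050-151034315, plus strand), the enzyme of a last reduction to cholesterol, was at 169, 170.1 and 180.2 CPM in NSC, 73.7, 73.6 and 74.5 CPM in Astrocyte, 40.8, 34.4 and 40.6 CPM in Neuron and 78.6 and 91.7 CPM in Oligodendrocyte. It had the same order of means, although the difference between Oligodendrocyte and Astrocyte was not called (0.20 (SE 0.0843, adjusted p = 0.0656)). That difference passed without Neuron replicate 2 (adjusted p = 0.0142) and without Oligodendrocyte replicate 1 (0.31, adjusted p = 0.0265). Its fall against NSC was -2.14 (SE 0.0754, adjusted p = 7.90e-12) in Neuron.

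Hsd17b7 (ENSMUSG00000026675, chr1:171879666-171899372, minus strand), a reductase that works with Nsdhl, was the exception among the enzymes. It was at 45.7, 47.0 and 45.3 CPM in NSC, 45.5, 40.2 and 34.7 CPM in Astrocyte, 17.0, 11.7 and 15.7 CPM in Neuron and 57.0 and 59.0 CPM in Oligodendrocyte. The Neuron libraries were below all others, the Oligodendrocyte libraries above all others, and Astrocyte replicate 1 lay within the NSC range. Against NSC it was lower in Neuron (-1.59 (SE 0.117, adjusted p = 1.93e-08)) and not called in Astrocyte (-0.20 (SE 0.117, adjusted p = 0.127)). The Astrocyte difference passed the threshold under median-of-ratios scaling (-0.38, adjusted p = 0.00514), without Astrocyte replicate 1 (-0.29, adjusted p = 0.0425) and without Neuron replicate 2 (-0.20, adjusted p = 0.0226). The rise in Oligodendrocyte (0.33 (SE 0.131, adjusted p = 0.0339)) was called in the fit as designed only by a narrow margin: it lost its call in 10 of the alternatives, among them median-of-ratios scaling (0.12, adjusted p = 0.384) and leaving out any 1 NSC or Oligodendrocyte library (0.30 to 0.35, adjusted p 0.0529 to 0.136).

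The other enzymes were Pmvk, Mvd, Fdft1, Sqle, Cyp51 and Tm7sf2, and all 6 were lower in each medium. Their log2 fold changes ran from -0.34 (Fdft1) to -1.24 (Cyp51) in Astrocyte, from -0.89 (Fdft1) to -1.87 (Cyp51) in Neuron and from -0.78 (Pmvk) to -1.25 (Mvd) in Oligodendrocyte. Fdft1, squalene synthase, changed least of the 15 in Neuron. Fdft1 overlaps Ctsb on the opposite strand over 769 bp and Tm7sf2 overlaps 1110014N23Rik on the same strand over 532 bp, and since the counting rule is not stated here, some of their reads may belong to the neighbour. Per kilobase of merged exon length (GENCODE M21), Cyp51, the lanosterol demethylase, had the highest NSC level of the 15 at 102 CPM, followed by Acat2 at 59.6, and Tm7sf2 had the lowest at 7.03.

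**Figure D2:**
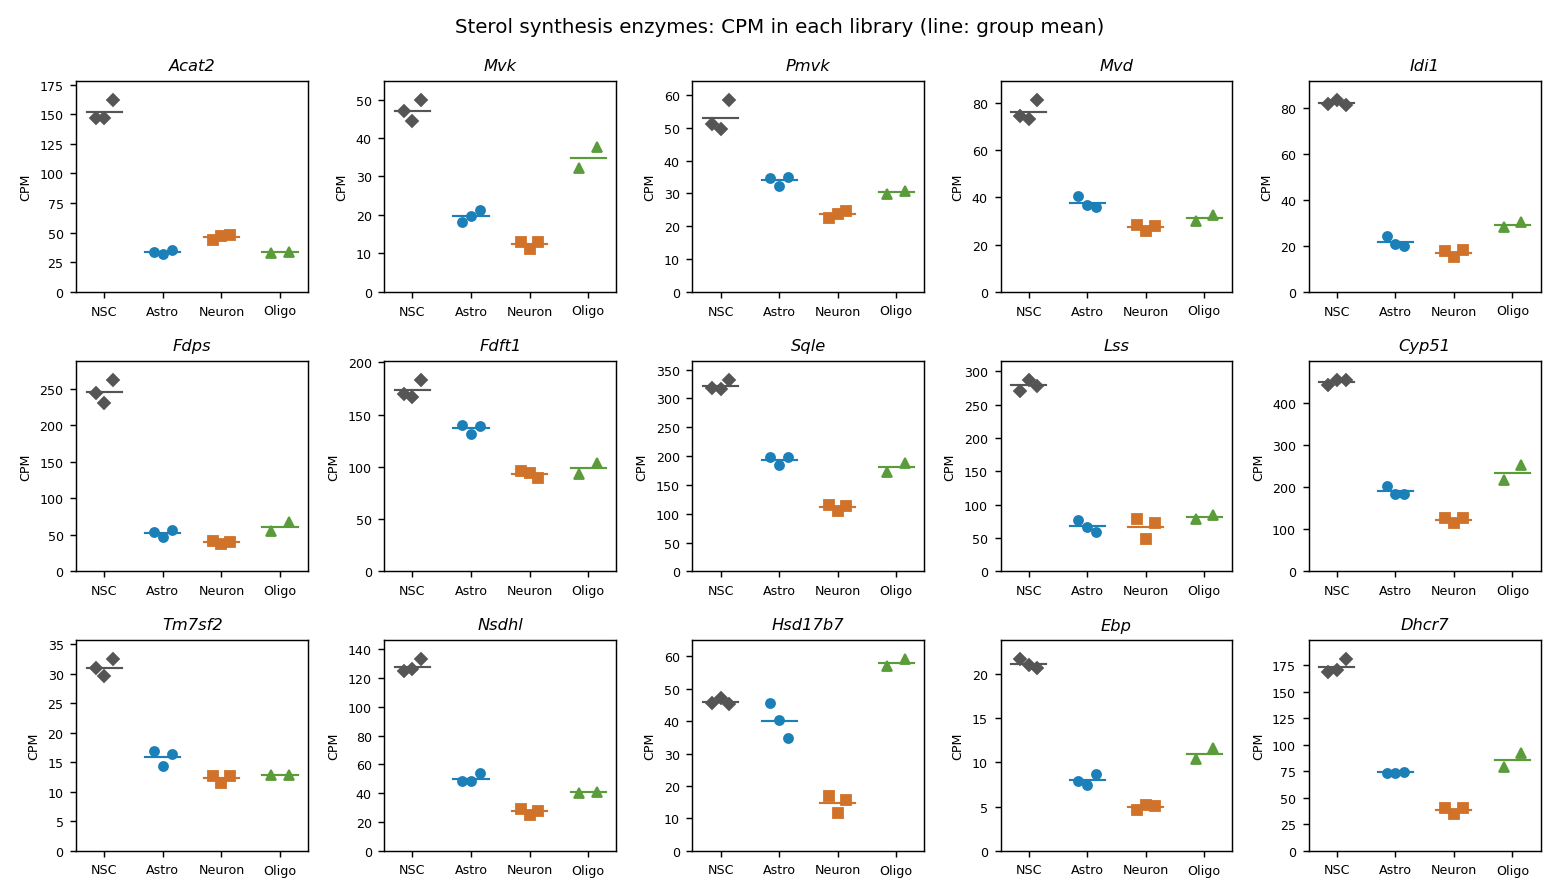
CPM of the 15 sterol synthesis enzymes in each of the 11 libraries, with a linear axis from 0 in each panel; points are libraries and lines group means. The mean is lowest in Neuron for 14 of the 15 enzymes, Acat2 being the exception, and highest in NSC for all but Hsd17b7.

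The genes grouped as SREBP control moved in different directions. Srebf1 encodes SREBP1 (ENSMUSG00000020538, chr11:60012591-60036083, minus strand) and was at 89.3, 91.2 and 96.8 CPM in NSC, 222, 224 and 244 CPM in Astrocyte, 104, 105 and 122 CPM in Neuron and 124 and 109.8 CPM in Oligodendrocyte. The Astrocyte libraries were far above the rest, and the Neuron and Oligodendrocyte libraries overlapped. Srebf1 was higher than in NSC by 1.31 (SE 0.0739, adjusted p = 1.05e-09) in Astrocyte, 0.25 (SE 0.0739, adjusted p = 0.00618) in Neuron and 0.33 (SE 0.0826, adjusted p = 0.00225) in Oligodendrocyte. The last was 0.12 with an adjusted p of 0.172 under median-of-ratios scaling. Srebf1 and Rai1 overlap on opposite strands by 109 bp.

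Srebf2, which encodes SREBP2, was at 305 ± 5.64 CPM in NSC (SD, n = 3), 217 ± 4.25 in Astrocyte (n = 3), 177 ± 19.8 in Neuron (n = 3) and 296 ± 19.1 in Oligodendrocyte (n = 2). It was lower in Astrocyte (-0.49) and Neuron (-0.79), and the difference in Oligodendrocyte was not called (-0.04 (SE 0.0845, adjusted p = 0.651)), although under median-of-ratios scaling it was -0.26 with an adjusted p of 0.0081. Scap was higher in Astrocyte (0.58) and Oligodendrocyte (0.76) and was not called in Neuron (-0.13 (SE 0.063, adjusted p = 0.0773)), where median-of-ratios scaling gave -0.20 (adjusted p = 0.00685) and leaving out Neuron replicate 3 gave -0.18 (adjusted p = 0.0244). Insig1, the anchor whose own gene is an SREBP target, was lower in all 3 media, at -1.09, -1.24 and -1.27 in Astrocyte, Neuron and Oligodendrocyte. It was called in none of the comparisons between day 4 groups, except in Oligodendrocyte vs Astrocyte when median-of-ratios scaling (-0.23, adjusted p = 0.0336) or quantile normalization (-0.30, adjusted p = 0.0159) was used.

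Stard4 (ENSMUSG00000024378) encodes a carrier that moves cholesterol between membranes. It was at 170.4, 167 and 158 CPM in NSC, 65.4, 58.3 and 56.4 CPM in Astrocyte, 45.1, 39.6 and 46.3 CPM in Neuron and 36.7 and 40.5 CPM in Oligodendrocyte. NSC was above all day 4 libraries, Astrocyte was above the other day 4 groups, and Neuron and Oligodendrocyte overlapped. The fall was -2.07 (SE 0.0849, adjusted p = 4.91e-11) in Oligodendrocyte, -1.90 in Neuron and -1.45 in Astrocyte.

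The 10 fatty acid synthesis genes moved in different directions. Acly, which makes cytosolic acetyl-CoA from citrate, Acaca, which carboxylates it to malonyl-CoA, Fasn, the fatty acid synthase, and Elovl6, which elongates its products, were lower in all 3 media. The log2 fold changes in Astrocyte, Neuron and Oligodendrocyte were -1.29, -1.55 and -1.53 for Acly, and -0.45, -0.78 and -0.67 for Acaca. For Fasn they were -0.97, -1.47 and -1.70, and for Elovl6 -1.70, -1.77 and -1.39. Of the 4 desaturases in the list 3 moved the other way. Fads1 and Fads2, the delta-5 and delta-6 desaturases of polyunsaturated fatty acids, and Scd2, the stearoyl-CoA desaturase of brain, were higher in all 3 media. Fads2 rose by 1.62, 0.77 and 0.83 in the same order, Fads1 by 1.11, 0.66 and 0.41, and Scd2 by 1.10, 0.73 and 0.98. The 10 genes summed to 5952 ± 95.1 CPM in NSC (SD, n = 3) and 9631 ± 110.0 in Astrocyte (n = 3), a sum in which Scd2 alone held 3035 ± 43.2 and 6500.0 ± 65.6 CPM. The median of the 10 was 0.30 in Astrocyte, -0.30 in Neuron and -0.62 in Oligodendrocyte. It was 0.12 in Astrocyte under median-of-ratios scaling and -0.19 in Neuron under quantile normalization.

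Scd1, a close paralog of Scd2, was lower in Neuron (-0.66) and Oligodendrocyte (-0.57). Its difference in Astrocyte (0.19 (SE 0.0799, adjusted p = 0.04)) was called narrowly and lost the call in 9 alternatives, with 0.01 under median-of-ratios scaling. How reads were assigned between Scd1 and Scd2 is not stated, so the split between them is uncertain. Elovl5, an elongase of polyunsaturated fatty acids, was higher in Astrocyte (0.41) and Oligodendrocyte (0.37) and not called in Neuron (0.07 (SE 0.0591, adjusted p = 0.302)). The Neuron difference passed under quantile normalization (0.18, adjusted p = 0.00677) and was -0.01 under median-of-ratios scaling.

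Thrsp (ENSMUSG00000035686, chr7:104561448-104566240, minus strand), also called Spot 14, is a small nuclear protein tied to lipogenesis and known as a thyroid hormone-responsive gene of liver. It was at 5.30, 5.11 and 6.74 CPM in NSC, 83.1, 75.8 and 78.2 CPM in Astrocyte, 40.1, 54.0 and 43.3 CPM in Neuron and 1.06 and 1.23 CPM in Oligodendrocyte. The 4 groups did not overlap, with Astrocyte highest and Oligodendrocyte, the culture with added T3, below even NSC. Against NSC Thrsp was higher in Astrocyte (3.58 (SE 0.113, adjusted p = 2.27e-12)) and Neuron (2.80 (SE 0.113, adjusted p = 3.21e-11)) and lower in Oligodendrocyte (-1.64 (SE 0.126, adjusted p = 3.55e-08)). Between media that differ by the added T3, Oligodendrocyte vs Neuron, the log2 fold change was -4.44 (SE 0.126, adjusted p = 1.89e-11), and against Astrocyte it was -5.22 (SE 0.126, adjusted p = 1.64e-11). The Neuron mean was 40.0 times the Oligodendrocyte mean. No other member differed as much between 2 day 4 groups. Of 5 tested genes of a thyroid hormone response list 3 were higher in Oligodendrocyte than in Neuron (Hr, Klf9 and Thrb), Dio2 was lower and Thra was not called. In that comparison 43.9% of all genes were called higher and 23.6% lower, so the count alone says little about the list. Dio3, also listed, did not pass the filter. Hr, a T3-induced corepressor, and Klf9, a T3-induced transcription factor, were at 157.45 to 176.83 and 90.5 to 102.23 CPM in Oligodendrocyte, above 7.47 to 9.86 and 25.31 to 30.45 CPM in Neuron. Dio2, the deiodinase that makes T3, was at a mean of 21.21 CPM in Oligodendrocyte and 64.68 CPM in Neuron (-1.56). The log2 fold change of Thrb, a T3 receptor, was 0.52, and that of Thra, the other T3 receptor, was -0.09 (adjusted p = 0.202).

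Of the 7 LXR and efflux genes 5 were higher than in NSC in Astrocyte and in Neuron, where Lpl was lower and Mylip was not called, and all 7 were higher in Oligodendrocyte. Of all genes 48.0%, 43.5% and 48.1% were called higher in Astrocyte, Neuron and Oligodendrocyte. No NSC library reached 1 CPM for Nr1h3, Abcg1 or Mylip. They passed the filter only through day 4 libraries, so the filter itself favoured higher calls for them. Nr1h2 and Nr1h3 encode LXR beta and LXR alpha. Nr1h2 was higher by 0.81 in Astrocyte, 0.64 in Neuron and 0.68 in Oligodendrocyte. Nr1h3 (ENSMUSG00000002108, chr2:91024218-91042991, minus strand) was at 0.14, 0.47 and 0.57 CPM in NSC, 6.02, 5.70 and 6.60 CPM in Astrocyte, 1.36, 1.75 and 1.29 CPM in Neuron and 2.71 and 2.76 CPM in Oligodendrocyte. The groups did not overlap, and all of these levels were low. Nr1h3 was higher by 2.36 (SE 0.119, adjusted p = 3.08e-10) in Astrocyte, 0.83 (SE 0.119, adjusted p = 1.86e-05) in Neuron and 1.44 (SE 0.133, adjusted p = 2.57e-07) in Oligodendrocyte.

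Abca1 (ENSMUSG00000015243, chr4:53043659-53172767, minus strand) exports cholesterol to lipid-poor apolipoproteins and is a classic LXR target. It was at 11.5, 12.5 and 11.2 CPM in NSC, 436, 413 and 373 CPM in Astrocyte, 284, 281 and 323 CPM in Neuron and 270.2 and 250.2 CPM in Oligodendrocyte. NSC lay far below every day 4 library, and Astrocyte was the highest group. The log2 fold change was 5.00 (SE 0.0753, adjusted p = 4.67e-15) in Astrocyte, 4.54 (SE 0.0753, adjusted p = 1.25e-14) in Neuron and 4.36 (SE 0.0842, adjusted p = 8.49e-14) in Oligodendrocyte, and the ratios of the group means to NSC were 34.7, 25.2 and 22.1. Apoe (ENSMUSG00000002985, chr7:20281458-20284515, minus strand), the main lipid carrier protein of brain, was at 69.5, 66.8 and 78.8 CPM in NSC, 5224, 5541 and 5667 CPM in Astrocyte, 4285, 5786 and 4643 CPM in Neuron and 1886 and 1648 CPM in Oligodendrocyte. NSC did not overlap with any day 4 group, Astrocyte and Neuron overlapped through Neuron replicate 2, and Oligodendrocyte was the lowest of day 4. Apoe had the largest changes against NSC of the 37 members, 6.24 (SE 0.109, adjusted p = 1.65e-14) in Astrocyte, 6.07 (SE 0.109, adjusted p = 1.96e-14) in Neuron and 4.60 (SE 0.122, adjusted p = 8.48e-13) in Oligodendrocyte. The ratios of means were 76.4, 68.4 and 24.6. Astrocyte marker genes, summed over 6 genes, were at 1429 to 1481 CPM in NSC, 11070 to 12690 CPM in Astrocyte, 6881 to 7461 CPM in Neuron and 2065 to 2278 CPM in Oligodendrocyte. Within the sum, means of Gfap (7631 against 2647 CPM) and Aqp4 (1479 against 763.3 CPM) were higher in Astrocyte than in Neuron. Those of Aldh1l1, S100b, Slc1a2 (269.6 against 869.6 CPM) and Slc1a3 (2005 against 2527 CPM) were lower in Astrocyte than in Neuron. The part of these markers in the Apoe levels was not tested. Microglia, which also express Apoe, had summed markers of at most 1.32 CPM in any library.

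Abcg1 (ENSMUSG00000024030, chr17:31194643-31252722, plus strand), a cholesterol exporter to lipoprotein particles, was at 0.19, 0.09 and 0.1 CPM in NSC, 0.84, 0.83 and 0.46 CPM in Astrocyte, 1.66, 1.77 and 1.84 CPM in Neuron and 2.43 and 2.84 CPM in Oligodendrocyte. Its groups did not overlap and ran in another order than Abca1, with Astrocyte the lowest of day 4. Abcg1 was higher than in NSC by 1.69 (SE 0.114, adjusted p = 9.13e-09) in Oligodendrocyte, 1.29 (SE 0.102, adjusted p = 4.10e-08) in Neuron and 0.59 (SE 0.102, adjusted p = 1.01e-04) in Astrocyte, the last of which was 0.03 under quantile normalization. Lpl (ENSMUSG00000015568, chr8:71404390-71431347, plus strand), the lipase that frees fatty acids from lipoproteins, was at 11.5, 11.8 and 12.8 CPM in NSC, 6.92, 7.07 and 6.35 CPM in Astrocyte, 6.55, 8.15 and 6.31 CPM in Neuron and 21.2 and 25.2 CPM in Oligodendrocyte. Astrocyte and Neuron overlapped and lay below NSC, and Oligodendrocyte lay above it. The log2 fold change against NSC was -0.74 (SE 0.0987, adjusted p = 8.78e-06), -0.71 (SE 0.0987, adjusted p = 1.43e-05) and 0.89 (SE 0.11, adjusted p = 4.93e-06) in that order of cultures. Mylip, a ubiquitin ligase that removes lipoprotein receptors, stayed between 0.66 and 1.72 CPM. It was called higher in Oligodendrocyte alone (0.44 (SE 0.116, adjusted p = 0.00354)), a call that was lost without Oligodendrocyte replicate 2 (0.28, adjusted p = 0.0753) and had the opposite sign under quantile normalization (-0.21). The medians of the 7 genes were 0.81, 0.83 and 1.44 in Astrocyte, Neuron and Oligodendrocyte, and under quantile normalization the last was 0.78.

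**Figure D3:**
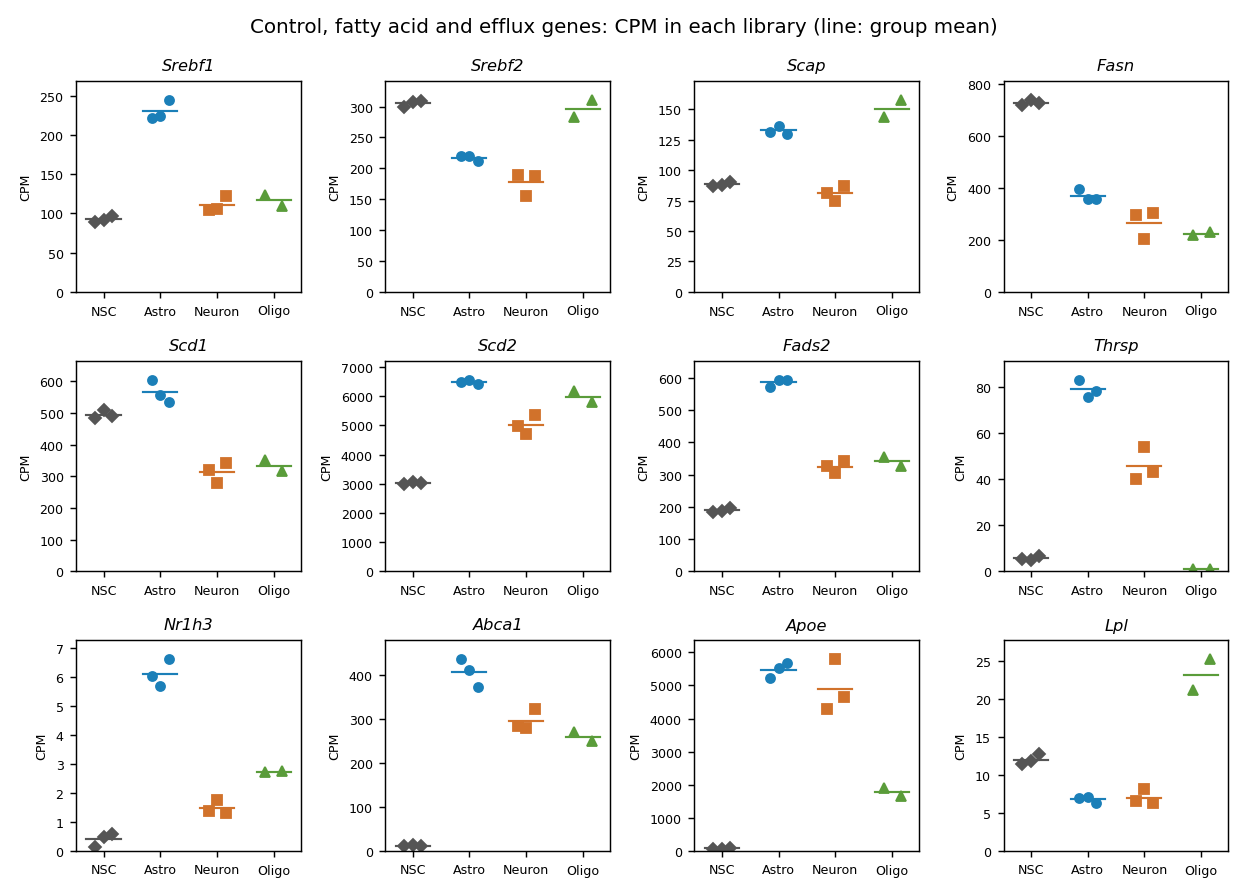
CPM of 12 members of the control, fatty acid and efflux roles in each of the 11 libraries, with a linear axis from 0 in each panel; points are libraries and lines group means. Srebf1 and Fads2 are highest in Astrocyte, Lpl is highest in Oligodendrocyte, and Thrsp is at 1.06 and 1.23 CPM there.

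The day 4 cultures also differed among themselves, and most of the members were higher in Astrocyte than in Neuron. In Astrocyte vs Neuron 31 members were called, 29 higher and 2 lower (Acat2 and Abcg1), where 62.2% of all genes were called, 40.3% higher and 22.0% lower. The differences were small, and 3 members were called at 2-fold or more (Hsd17b7, Srebf1 and Nr1h3) against 9.34% of all genes (6.39% higher, 2.95% lower). All 37 members had a median of 0.45, beside 0.10 for all genes. Under median-of-ratios scaling, which called 32.7% of all genes higher and 29.2% lower, 27 members were higher and 2 lower, and under quantile normalization (30.4% and 32.3%) 26 and 2. Without Neuron replicate 2 they were 30 and 2. Of the sterol enzymes 13 were higher, with a median of 0.55, Acat2 was lower (-0.45) and Lss was not called (0.04 (SE 0.141, adjusted p = 0.81)). The largest difference was that of Hsd17b7, at 1.39 (SE 0.117, adjusted p = 3.08e-07), followed by Dhcr7 at 0.93 and Nsdhl at 0.85. Among control genes Srebf1 was higher by 1.05 (SE 0.0739, adjusted p = 5.56e-08), Scap by 0.71, Stard4 by 0.45 and Srebf2 by 0.30. Of the 10 fatty acid genes 9 were higher, led by Scd1 at 0.85, Fads2 at 0.85 and Thrsp at 0.78, and Elovl6 was not called (0.06 (SE 0.0818, adjusted p = 0.518)). The difference in Scd2 of 0.37 was 0.00 under quantile normalization. Nr1h3 was higher by 1.53 (SE 0.119, adjusted p = 1.44e-07) and Abca1 by 0.46 (SE 0.0753, adjusted p = 1.38e-04). Nr1h2, at 0.18 (SE 0.0673, adjusted p = 0.0361), lost its call in 9 alternatives. Apoe was not called (0.17 (SE 0.109, adjusted p = 0.192)), and without Neuron replicate 2 it was 0.30 with an adjusted p of 0.00678. The media of these cultures differ in basal medium, supplement and serum, which cannot be told apart.

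Oligodendrocyte vs Neuron compared media that differ by the added T3. Here 24 members were called, 20 higher and 4 lower, where 67.5% of all genes were called, 43.9% higher and 23.6% lower. The 4 lower members were Acat2 (-0.46), Fads1 (-0.25), Thrsp (-4.44) and Apoe (-1.46 (SE 0.122, adjusted p = 2.51e-07)). The split moved with the scaling and with 1 library: it was 17 higher and 7 lower under median-of-ratios scaling (all genes 34.7% and 31.4%), 15 and 6 under quantile normalization (31.9% and 34.5%), and 17 and 7 without Neuron replicate 2. Sterol enzymes were higher in 11 of 15 cases, with a median of 0.60 beside 0.15 for all genes. The median was 0.46 under median-of-ratios scaling and 0.57 without Neuron replicate 2. Enzymes at 2-fold or more were Hsd17b7 at 1.92 (SE 0.131, adjusted p = 3.76e-08), Mvk at 1.42 (SE 0.096, adjusted p = 3.30e-08), Dhcr7 at 1.12 (SE 0.0843, adjusted p = 9.31e-08) and Ebp at 1.01 (SE 0.0907, adjusted p = 5.14e-07), 4 of 15, where 8.96% of all genes were that much higher. Fdft1, Lss and Tm7sf2 were not called, and Mvd (0.20 (SE 0.0776, adjusted p = 0.0378)) was not called without Neuron replicate 2 (0.15, adjusted p = 0.0803) or Oligodendrocyte replicate 2 (0.14, adjusted p = 0.244) and was -0.01 under quantile normalization. The Fads1 call was lost without Oligodendrocyte replicate 2 (-0.21, adjusted p = 0.0533). Srebf2 (0.74 (SE 0.0845, adjusted p = 4.63e-06)) and Scap (0.89 (SE 0.0705, adjusted p = 1.51e-07)) were higher as well, while Srebf1, Insig1 and Stard4 were not called. Stard4 was lower without Neuron replicate 2 (-0.24, adjusted p = 0.00965) and under median-of-ratios scaling (-0.31, adjusted p = 0.00316).

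Of the 10 fatty acid genes 3 were higher and 2 lower in that comparison. Acly, Acaca, Fasn, Scd1 and Fads2 were not called, with log2 fold changes from -0.23 (Fasn) to 0.11 (Acaca). Fasn was 294, 202 and 302 CPM in the Neuron libraries and 217 and 229 CPM in Oligodendrocyte. Neuron replicate 2 was below both Oligodendrocyte libraries and the other Neuron libraries were above them, and without it the log2 fold change was -0.42 (adjusted p = 4.46e-05). Elovl5 (0.30) and Elovl6 (0.38) were higher. Scd2 was called at 0.25 (SE 0.105, adjusted p = 0.0459), a call lost in 15 alternatives. The median of the 10 genes was 0.08. Of the LXR and efflux genes Lpl was higher by 1.60 (SE 0.11, adjusted p = 4.06e-08), Nr1h3 by 0.60 (SE 0.133, adjusted p = 0.00132) and Abcg1 by 0.40 (SE 0.114, adjusted p = 0.00758), although Abcg1 lost its call under quantile normalization (0.19, adjusted p = 0.162), with a pseudocount of 0.1 and without Oligodendrocyte replicate 2. Abca1 was not called (-0.18 (SE 0.0842, adjusted p = 0.0682)), but was lower without Neuron replicate 2 (-0.22, adjusted p = 0.0244) and under median-of-ratios scaling (-0.32, adjusted p = 0.00207). Nr1h2 was not called (0.05). Mylip, at 0.33 (SE 0.116, adjusted p = 0.0235), was not called without Neuron replicate 2 (0.27, adjusted p = 0.0621) or Oligodendrocyte replicate 2 (0.17, adjusted p = 0.294).

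**Figure D4:**
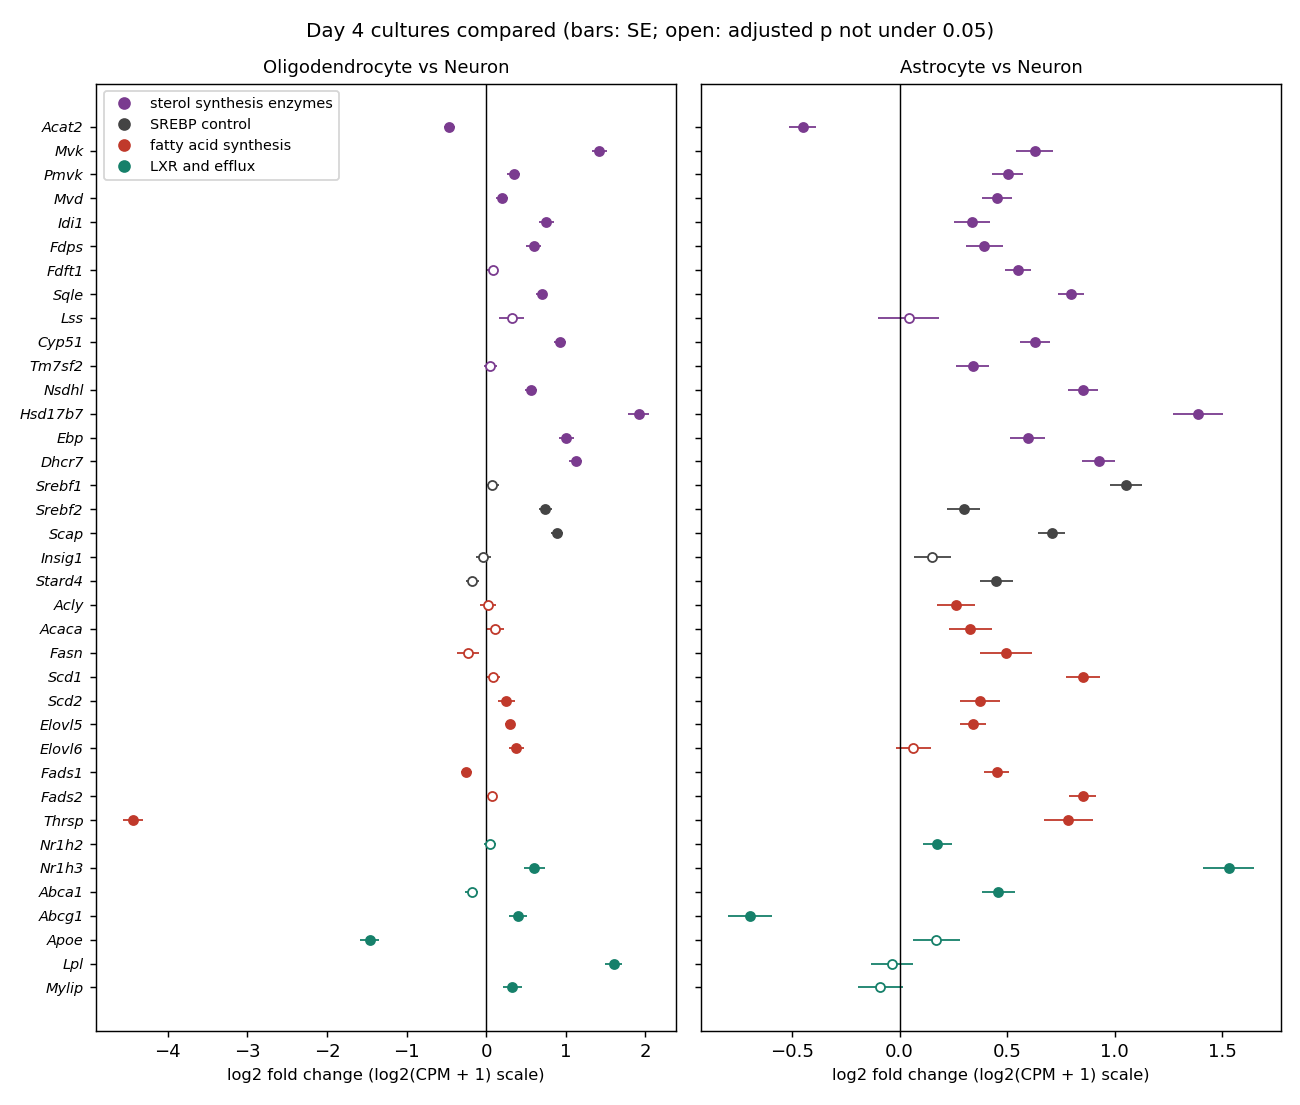
Log2 fold change of each of the 37 members between day 4 cultures on the log2(CPM + 1) scale, Oligodendrocyte vs Neuron on the left and Astrocyte vs Neuron on the right with its own horizontal scale; points are fitted differences coloured by role, bars the SE, and open points differences that were not called. Most sterol enzymes lie to the right of 0 in both panels, and Thrsp lies at -4.44 on the left.

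In Oligodendrocyte vs Astrocyte 25 members were called, 11 higher and 14 lower, against 52.2% of all genes (28.7% higher, 23.5% lower). Sterol enzymes split into 5 higher (Mvk, Idi1, Cyp51, Hsd17b7 and Ebp), 4 lower (Mvd, Fdft1, Tm7sf2 and Nsdhl) and 6 not called. The largest of each were 0.79 (SE 0.096, adjusted p = 1.41e-05) for Mvk and -0.47 (SE 0.0688, adjusted p = 8.00e-05) for Fdft1. Fatty acid genes were lower in 5 cases, Fasn (-0.72), Scd1 (-0.76), Fads1 (-0.70), Fads2 (-0.78) and Thrsp (-5.22), and Elovl6 was higher (0.32). Srebf1 was lower (-0.97 (SE 0.0826, adjusted p = 5.33e-07)) while Srebf2 was higher by 0.45 (SE 0.0845, adjusted p = 6.52e-04). Scap, at 0.18 (SE 0.0705, adjusted p = 0.0463), lost its call in 13 alternatives. Of the efflux genes Apoe (-1.63), Nr1h3 (-0.93) and Abca1 (-0.64) were lower, and Lpl (1.63), Abcg1 (1.09) and Mylip (0.42) were higher. Several of the smaller calls turned on 1 library. Mvd (-0.20, adjusted p = 0.125) and Tm7sf2 (-0.28, adjusted p = 0.0591) were not called without Oligodendrocyte replicate 1, nor were Tm7sf2 (-0.29, adjusted p = 0.0621), Cyp51 (0.19, adjusted p = 0.117), Elovl6 (0.30, adjusted p = 0.0755) and Mylip (0.26, adjusted p = 0.145) without replicate 2. Without Neuron replicate 2 Lss, Dhcr7, Acly and Acaca were called too, for 13 higher and 16 lower. At 2-fold or more 4 members were called, Thrsp, Apoe, Lpl and Abcg1, against 7.94% of all genes (4.53% higher, 3.41% lower).

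Other genes of the pathways were examined from lists. Sc4mol (now Msmo1) and Sc5d, enzymes of the steps after lanosterol, were each lower in Neuron than in NSC, with log2 fold changes of -1.35 and -0.66, and each was higher in Astrocyte and in Oligodendrocyte than in Neuron. Sc4mol was also lower than in NSC in Astrocyte (-0.28) and Oligodendrocyte (-0.53), while Sc5d was not called there (-0.04, adjusted p = 0.659, and -0.16, adjusted p = 0.0996). Hmgcs1 was listed only on unplaced scaffolds and is not analysed here. All 10 tested genes of a list of efflux and oxysterol genes were higher in Astrocyte and in Oligodendrocyte than in NSC, and 8 of 10 in Neuron, where 48.0%, 48.1% and 43.5% of all genes were higher. Lcat and Cyp27a1 were those not called in Neuron. Among them Cyp46a1, the cholesterol 24-hydroxylase, rose from a mean of 1.89 CPM in NSC to 78.89 CPM in Neuron (log2 fold change 4.79), and Pltp, a phospholipid transfer protein, from 4.357 to 58.39 CPM in Astrocyte (3.47).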

How the data were processed

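The authors deposited CPM values per gene and library, rounded to 2 decimals, per the file headers. The submitters' processing notes name bcl2fastq 1.8.4, TopHat2 2.0.8, HTSeq 0.6.1, edgeR 3.2.4, R 3.0.0, HOMER and the mouse build NCBIM37 (mm9), without saying which step each did. Whether counting used the strand or unique reads only is not given in the sources used here. CPM fixes each library's total, so a rise of abundant genes lowers the share left to others. The alternative scalings show how the results change under other ways of levelling the libraries. They do not settle this, since RNA per cell was not measured.

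Depth was estimated from the spacing of low CPM values (0.01512 to 0.02029 CPM per read). Genes reaching 1 CPM in 2 or more libraries were kept on the log2(CPM + 1) scale. The model, limma 3.58.1 under R 4.3.3, took the 11 libraries together with a coefficient for each of the 4 groups (eBayes with a mean-variance trend, 7 residual degrees of freedom, two-sided). P-values were adjusted by Benjamini-Hochberg over all genes tested within each of 6 comparisons. The script was tested on simulated data. Rounding to 2 decimals was too coarse to recover whole reads, so no count test was run. Alternatives were 2 other pseudocounts, 2 other filters, 3 other scalings, a fit without the trend, fits of only the groups compared, a replicate block and leaving out each library. The 37 members and all lists were chosen with earlier results of these data known. Values are written out for members called with at least a 2-fold change between 2 day 4 cultures or at least a 4-fold change against NSC. Of other lists at most 4 called genes with the largest differences are named, and any that a count of 5 or fewer refers to. The authors' columns of group means and SDs were not used. Some genes of the wider lists are not reported here.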

Additional observations from a re-analysis of the deposited data

Results flagged for a closer look

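For 4 members the change from NSC went in opposite directions in 2 media, and the difference between those media was itself tested (limma, Benjamini-Hochberg adjusted p). Thrsp was higher than in NSC in Astrocyte (3.58) and Neuron (2.80) and lower in Oligodendrocyte (-1.64), with a log2 fold change of -5.22 in Oligodendrocyte vs Astrocyte (adjusted p = 1.64e-11) and -4.44 in Oligodendrocyte vs Neuron (adjusted p = 1.89e-11). Lpl was lower in Astrocyte (-0.74) and Neuron (-0.71) and higher in Oligodendrocyte (0.89), with 1.63 in Oligodendrocyte vs Astrocyte (adjusted p = 6.32e-08) and 1.60 in Oligodendrocyte vs Neuron (adjusted p = 4.06e-08). Hsd17b7 was lower in Neuron (-1.59) and marginally higher in Oligodendrocyte (0.33), with 1.92 in Oligodendrocyte vs Neuron (adjusted p = 3.76e-08). Scd1 was marginally higher in Astrocyte (0.19) and lower in Neuron (-0.66) and Oligodendrocyte (-0.57), with 0.85 in Astrocyte vs Neuron (adjusted p = 8.42e-07) and -0.76 in Oligodendrocyte vs Astrocyte (adjusted p = 1.11e-05). The comparisons with NSC share the same 3 NSC libraries.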

How the results depend on the processing

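Against NSC the number of members called stayed within 34 to 36 for Astrocyte, 33 to 36 for Neuron and 34 to 36 for Oligodendrocyte under every alternative run. It was 28 to 32 in Astrocyte vs Neuron, 19 to 24 for Oligodendrocyte vs Neuron and 20 to 30 for Oligodendrocyte vs Astrocyte. Leaving out 1 library at a time gave 34 to 36, 34 to 35, 34 to 36, 29 to 32, 19 to 24 and 20 to 29. Of 185 called values 164 kept their call and sign in every alternative that tested the gene. Abcg1 and Mylip did not pass the 5 CPM filter and have no value under it. Of 4650 values of single genes under an alternative, 89 lost and 45 gained a call with the same sign, and 47 changed sign. Of those 47, 2 had been called, and 2 were called only with the sign turned: Mylip lower than in NSC under quantile normalization, with -0.63 in Astrocyte (adjusted p = 6.17e-05) and -0.39 in Neuron (adjusted p = 0.00288). With a pseudocount of 5 the genes called at 2-fold fell from 4238 to 2784 in Neuron and 4263 to 2819 in Oligodendrocyte against NSC, 1246 to 598 for Astrocyte vs Neuron, 1673 to 904 for Oligodendrocyte vs Neuron and 1060 to 595 for Oligodendrocyte vs Astrocyte, since a larger pseudocount shrinks low genes. Counts within a role that moved by over 1.5 times were all of 4 or fewer genes. LXR and efflux genes called higher went from 4 to 2 for Oligodendrocyte vs Neuron with the 5 CPM filter, quantile normalization or no Oligodendrocyte replicate 2, and 3 became 1 for Oligodendrocyte vs Astrocyte with that filter. Those called lower went from 1 to 2 for Oligodendrocyte vs Neuron under all 3 other scalings and without Neuron replicate 2, from 1 to 2 against NSC in Astrocyte and in Neuron under quantile normalization, and from 1 to 0 for Astrocyte vs Neuron with the 5 CPM filter. Control genes called higher went from 2 to 1 for Oligodendrocyte vs Astrocyte in 13 alternatives and for Oligodendrocyte against NSC under median-of-ratios scaling, and those lower than in Neuron from 0 to 1 under the 3 scalings and without Neuron replicate 2. Without Oligodendrocyte replicate 2 the fatty acid genes higher than in Astrocyte went from 1 to 0 and those lower than in Neuron from 2 to 1. The 1 sterol enzyme higher than in NSC in Oligodendrocyte fell to 0 in 10 alternatives, and the 4 lower than in Astrocyte fell to 2 without Oligodendrocyte replicate 1.

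Changes of sign were as follows, and the cause was not tested. Median-of-ratios scaling gave Mylip -0.06 in Astrocyte vs NSC, Elovl5 -0.01 in Neuron vs NSC, and Lss -0.06 and Elovl6 -0.04 in Astrocyte vs Neuron. For Oligodendrocyte vs Neuron it gave Fdft1 -0.06, Tm7sf2 -0.08, Srebf1 -0.06, Acly -0.12, Acaca -0.03, Scd1 -0.05, Fads2 -0.07 and Nr1h2 -0.09. Quantile normalization gave Mylip -0.63, -0.39 and -0.21 in Astrocyte, Neuron and Oligodendrocyte vs NSC, Srebf2 0.02 in Oligodendrocyte vs NSC, Lss -0.03, Elovl6 -0.03 and Apoe -0.17 in Astrocyte vs Neuron, and Scd2 0.25 in Oligodendrocyte vs Astrocyte. In Oligodendrocyte vs Neuron it gave Mvd -0.01, Fdft1 -0.05, Tm7sf2 -0.17, Srebf1 -0.05, Acly -0.08, Acaca -0.02 and Nr1h2 -0.15. Leaving mitochondrial genes out of the scaling gave Lss -0.01 in Astrocyte vs Neuron and, in Oligodendrocyte vs Neuron, Tm7sf2 -0.02, Acly -0.06, Fads2 -0.01 and Nr1h2 -0.03. Leaving out 1 library moved Mylip between -0.03 and 0.09 in Astrocyte vs NSC and Srebf2 between -0.11 and 0.02 in Oligodendrocyte vs NSC. For Astrocyte vs Neuron it moved Lss between -0.17 and 0.17, Elovl6 between -0.04 and 0.14 and Lpl between -0.10 and 0.07. In Oligodendrocyte vs Neuron it moved Srebf1 between -0.01 and 0.16, Insig1 between -0.12 and 0.04, Acly between -0.10 and 0.09 and Acaca between -0.04 and 0.19, and in Oligodendrocyte vs Astrocyte Acat2 between -0.05 and 0.02.

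The labels do not say whether replicate numbers pair the samples. Correlations of same-numbered deviations from the group means ran from -0.505 to 0.415, and those of differently numbered ones from -0.536 to 0.541. Deviations within a group depend on one another, so these correlations cannot decide whether the samples were paired. With the replicate number as a block, Hsd17b7 in Oligodendrocyte vs NSC (0.31, adjusted p = 0.0549) and Mylip in Oligodendrocyte vs Neuron (0.31, adjusted p = 0.0525) lost their calls, Acat2 in Oligodendrocyte vs Astrocyte changed sign (0.02), and no other call of a member changed. With 2 Oligodendrocyte libraries, leaving out 1 assumes that the remaining library varies like the other groups. Mylip, Abcg1 and Nr1h3 were below 7 CPM in every library, where the log2(CPM + 1) scale compresses differences.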

Other observations

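Genes of fatty acid oxidation were mostly higher at day 4 than in NSC, 10 of 11 in Astrocyte, 8 in Neuron and 10 in Oligodendrocyte, where 48.0%, 43.5% and 48.1% of all genes were called higher. Acadl, a long-chain acyl-CoA dehydrogenase, was lower in Oligodendrocyte (-0.78) and was not called in Astrocyte (0.03). Among them Cpt1c, a brain carnitine palmitoyltransferase, rose from a mean of 30.11 CPM in NSC to 119.0 CPM in Astrocyte (log2 fold change 1.95), and Acadm, an acyl-CoA dehydrogenase, from 54.96 to 152.2 CPM there (1.45). Elovl7, a fatty acid elongase, was at a mean of 1.55 CPM in NSC and 97.57 CPM in Oligodendrocyte (5.27), and Gpam, which starts glycerolipid synthesis, at 59.97 CPM in NSC and 694.7 CPM in Astrocyte (3.51). Of 4 tested myelin lipid enzymes all were higher than in NSC in Astrocyte and in Neuron and 3 in Oligodendrocyte (Fa2h, Ugt8a and Gal3st1), beside the same shares of all genes. Aspa, which frees acetate from N-acetylaspartate, was lower in Oligodendrocyte than in NSC (-0.29) and than in Astrocyte (-0.89). Fa2h, a fatty acid hydroxylase, was at 33.8 to 37.29 CPM in Neuron, 29.35 and 32.25 CPM in Oligodendrocyte and 5.5 to 7.16 CPM in Astrocyte. Vldlr, a lipoprotein receptor, had a mean of 102.8 CPM in Oligodendrocyte against 19.1 CPM in Astrocyte (2.37).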
